A study of Mus musculus with 18 samples.

Results

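The genes described here encode the proteins of the cytosolic ribosome and were chosen by symbol. The rule took Rps or Rpl followed by a number, with an optional suffix a, x, l or l1, together with Rpsa, Rplp0, Rplp1 and Rplp2, and left out ribosomal protein kinases, binding proteins, pseudogenes and unnamed models. It gave 81 of the 17180 genes listed in any table, of which 31 belong to the small (40S) and 50 to the large (60S) subunit. Rpl36al and Rps3a1 also encode ribosomal proteins, but their suffixes fall outside the rule and they are given separately below. Members were found on 19 chromosomes, and 14 of the 81 lie on chromosome 7.

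The small subunit of the ribosome reads the codons of an mRNA, and the large subunit joins the amino acids. Most ribosomal protein mRNAs begin at or near a run of pyrimidines, the terminal oligopyrimidine tract, through which mTOR signalling sets how strongly they are translated, so that the output of protein can change while the mRNA level does not. After removal of liver tissue the remaining hepatocytes grow and then divide, and they make ribosomes to do so.

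Liver RNA of C57BL/6 mice was sequenced 0.5, 2, 4, 24, 48, 72, 120 and 168 h after 2/3 partial hepatectomy and in a sham group. The labels give no other allele or agent, and they give neither the time at which the sham livers were taken nor the sex of the mice. RNA of 3 mice was pooled for sequencing, and 2 such pools made up each of the 9 groups (18 libraries, 54 mice), so n = 2 throughout. Spread between pools, not between single mice, underlies every p-value, and the labels do not say whether the pools of a group were operated on separately.

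Library totals ranged from 7.78 to 9.16 (in units of 1000000 uniquely mapped reads). In 16 tables every gene with a read was listed, 14050 to 14741 genes a table. Shorter were the tables of sham replicate 2 (8026 genes, lowest count 52, 1.14% of the reads in genes left off) and 0.5 h replicate 1 (4908 genes, lowest count 157, 4.73% left off). A gene needed a row in both to be tested, which 4905 genes had, among them 74 of the 81 members, 30 of the small and 44 of the large subunit. Which members were tested was thus set by their counts in these libraries. All 6 hepatocyte markers (Alb, Apoa1, Ttr, Serpina1a, Cps1 and Ass1) had reads in every group, and their summed level in complete tables was 112582 CPM (counts per 1000000 reads) in sham, 67707 to 79767 CPM at 24 h and 110227 to 156450 CPM from 48 h on.

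The windows around the transcription start are shown for members on which the results below turn, with and without the pyrimidine run. They are taken from RefSeq on GRCm38.p6 and hold 30 bases, 15 on each side of the annotated start, read 5′ to 3′ on the strand of the gene. Capitals mark the longest pyrimidine run in the window that begins with C and holds at least 6 bases, which may go on past the window's edge. The windows lie at chr7:141447636-141447665 on the plus strand (Rplp2), chr2:32961697-32961726 on the plus strand (Rpl12), chr2:39005117-39005146 on the minus strand (Rpl35), chr14:18270972-18271001 on the minus strand (Rpl15), chr7:118116133-118116162 on the minus strand (Rps15a), chr10:23787195-23787224 on the minus strand (Rps12), chr4:86857353-86857382 on the minus strand (Rps6), chr2:26910792-26910821 on the plus strand (Rpl7a), chr10:128549154-128549183 on the minus strand (Rpl41) and chr5:107900513-107900542 on the plus strand (Rpl5).
Rplp2: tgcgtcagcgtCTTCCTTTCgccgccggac
Rpl12: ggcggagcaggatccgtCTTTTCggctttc
Rpl35: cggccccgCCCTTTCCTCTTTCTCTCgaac
Rpl15: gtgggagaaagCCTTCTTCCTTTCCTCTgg
Rps15a: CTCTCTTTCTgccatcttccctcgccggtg
Rps12: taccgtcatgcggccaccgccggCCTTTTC
Rps6: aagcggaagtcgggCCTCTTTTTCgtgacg
Rpl7a: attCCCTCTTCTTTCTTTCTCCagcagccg
Rpl41: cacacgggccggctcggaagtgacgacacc
Rpl5: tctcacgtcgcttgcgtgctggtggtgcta

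Of the 81 members, 61 had a promoter entry, and 36 of the 61 (59.0%) held such a run, against 25.5% of the 27025 genes with an entry. Rpl7a and Rpl35 have long runs that cover most of their windows, while the windows of Rpl41 and Rpl5 hold none at the annotated start. In the 250 bases before to 50 bases after the start, CCGGAAG or its reverse complement CTTCCGG stood in 25 of 61 members (41.0%) and in 9.93% of all genes. AAGATGGC or GCCATCTT stood in 5 members (8.20%, against 3.19%), the palindrome CACGTG in 6 (9.84%, against 8.09%), and TATAAA or TTTATA in 6 (9.84%, against 15.7%). These are matches of letters on both strands, and no binding was measured.

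Per length, the 74 members ranged from 7.44 to 1231 RPKM (reads scaled by gene length and library total, as deposited, mean over complete tables), with a median of 248 RPKM. The highest were Rpl41, a very short protein of the large subunit, at 1231 RPKM, Rpl10, which sits at the tRNA-binding face of the large subunit, at 618 RPKM, Rplp1, an acidic stalk protein, at 613 RPKM, and Rps2 at 550 RPKM. Rps15a was the lowest of the 74 at 7.44 RPKM, with a gene length in the tables of 5158 bases against 328 bases for the shortest member. The reads were counted only where they mapped uniquely, and many ribosomal protein genes have near-identical pseudogenes, so levels between genes are uncertain where a copy could take reads out of the count.

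Together the 81 genes took the largest share of the reads at 24 h. The share was 1.33% and 1.35% in the sham pools, 1.67% and 1.5% at 0.5 h, 1.40% and 1.18% at 2 h, and 1.32% and 1.36% at 4 h. It was 1.92% and 2.01% at 24 h, 1.81% and 1.80% at 48 h, and 1.56% and 1.86% at 72 h. At 120 h the pools had 1.45% and 1.39%, and at 168 h 1.31% and 1.53%. Both pools at 0.5, 24, 48, 72 and 120 h lay above both sham pools, and those at 2, 4 and 168 h fell on both sides of sham. An exact permutation test of 2 pools against 2 cannot give a two-sided p below 0.333, so none is given for the share. Counting error was small, with a 95% Wilson interval of 1.32% to 1.34% for sham replicate 1, which is narrower than the distance between the pools of most groups. With Alb, which took 5.40% to 13.5% of the reads, left out of the total, the mean share went from 1.48% in sham to 2.09% at 24 h. It was then 2.00% at 48 h and 1.97% at 72 h, and the highest single pool was 72 h replicate 2 (2.127%, against 2.052% and 2.124% at 24 h). In bulk RNA, a change in the number of cells of a type and a change in RNA per cell cannot be told apart.

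**Figure D1:**
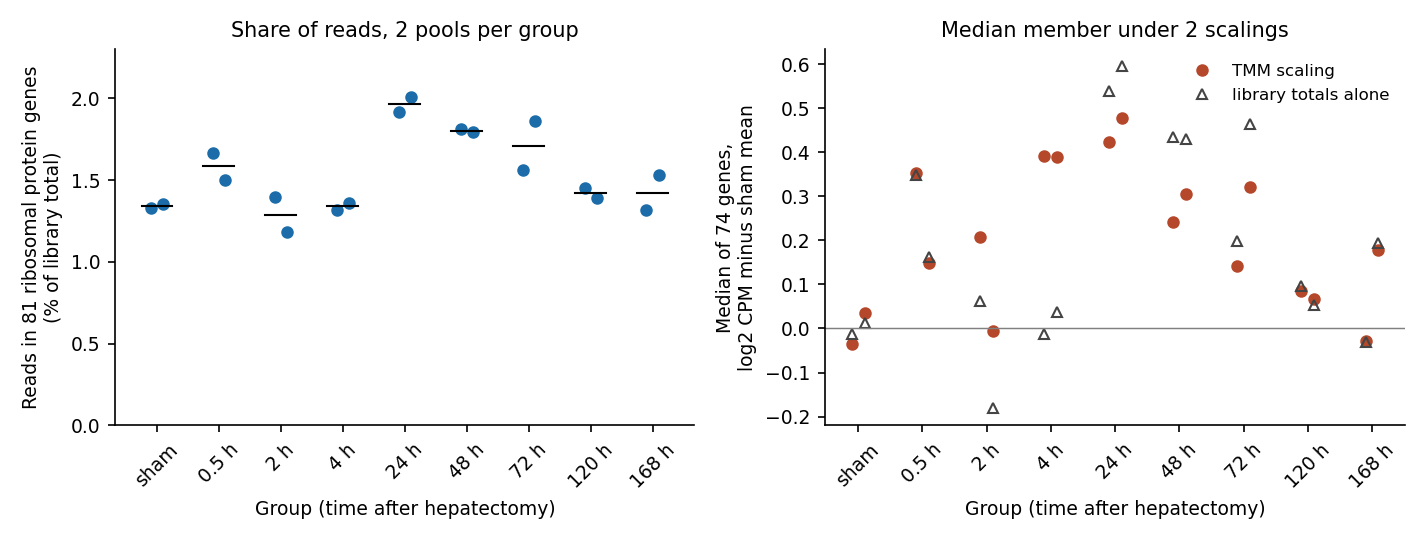
Left, share of each library's reads in the 81 ribosomal protein genes (percent, y axis) for the 2 pools of each group (points) and their mean (line); the pools at 24 h, 1.92% and 2.01%, are the highest. Right, median over 74 members of log2 CPM minus the sham mean under TMM scaling (circles) and under library totals alone (triangles); at 4 h the circles stand near 0.39 and the triangles near 0.

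From here on, levels are CPM after TMM scaling, which scales libraries by a trimmed mean of log ratios over genes. With it the median change of all genes against sham lay between -0.02 (72 h) and 0.02 (168 h). Changes are on the log2 scale, ± SE, by the quasi-likelihood test of edgeR, with p adjusted by Benjamini-Hochberg over all 4905 genes. A gene is said to rise or fall where the adjusted p was under 0.05. All comparisons with sham share the same 2 sham pools. With library totals in place of TMM, the median of all genes tested stood at -0.17 (2 h), -0.37 (4 h), 0.11 (24 h) and 0.15 (48 h). Changes with TMM are thus, in effect, relative to the median gene.

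At 0.5 h no member passed the test by edgeR, but most lay above sham. The median change of the 74 members was 0.29, against 0.01 for all genes, and 66 estimates were positive. Both pools lay above both sham pools for 57 members, against 27.4% of all genes. edgeR called 0 members, with 0.204% of all genes called, while 32 had an unadjusted p under 0.05 and DESeq2 called 8, all higher, with 2.57% of all genes called by it. The pools differed from each other: 11 of 74 members were higher in replicate 2, whose table was complete, than in replicate 1. Across all 4880 genes with a transcript GC content, the change at 0.5 h rose with GC (Spearman rho 0.69, across genes within these libraries), as it did across the 74 members (0.44), and with a trend on GC taken out of each library, a setting chosen after seeing the data, the median change was 0.20 and 0 members were called (0.122% of all genes).

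At 2 h no member passed the test either, and the median change was 0.10. edgeR and DESeq2 each called 0 members, with 8.77% and 12.1% of all genes called, and 1 member had an unadjusted p under 0.05. Of the 74, 26 lay above sham in both pools (24.1% of all genes did) and 6 below it (25.5%), and 70 had the lower level in replicate 2. By library totals the median was -0.06, so no direction is given for this time.

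At 4 h, 39 of the 74 members rose and none fell, with 35.6% of all genes called in either direction and 16.9% called higher. The median change was 0.39, a fold change of 1.31, and both pools lay above both sham pools for 73 members, against 35.4% of all genes. The rise held in both subunits, with 17 of 30 small and 22 of 44 large subunit genes called, and medians of 0.40 and 0.39. This rise is relative to the median gene: by library totals, where most genes read lower at 4 h, the median of the members was 0.02, 0 rose and 1 fell, with 53.1% of all genes called. The count was 4 or 13 with sham replicate 1 or 2 left out, 17 or 16 with 4 h replicate 1 or 2 left out and 5 in complete tables alone, where 15.5% of all genes were called.

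The members with the largest rise at 4 h were Rps12, Rps24, Rps15a and Rpl26. Rps12, a small subunit protein (gene 20042, chr10:23785183-23787383), had 105 and 104 CPM in sham and 154 and 161 CPM at 4 h, a rise of 0.59 ± 0.13 (adjusted p = 0.00288, edgeR). Rps24, a small subunit protein altered in some families with Diamond-Blackfan anaemia, had 291 and 286 CPM in sham and 431 and 432 CPM at 4 h (0.58 ± 0.16, adjusted p = 0.0121, edgeR). For both genes the pools at 4 h stood well clear of sham. Rps15a rose by 0.58 ± 0.12 from 29.8 and 32.7 to 42.5 and 50.7 CPM, and Rpl26, a large subunit protein that also binds p53 mRNA, rose by 0.56 ± 0.19 from 40.9 and 40.4 to 58.1 and 62.0 CPM. No call of a rise at 4 h, of these or other members, held under library totals, where Rps12 had a change of 0.22.

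At 24 h, 38 of the 74 members rose and none fell, with 17.2% of all genes called and 7.83% called higher. The median change was 0.43, a fold change of 1.35, with 73 positive estimates, and both pools lay above both sham pools for 68 members, against 27.8% of all genes. Of the small subunit genes 14 of 30 rose, and of the large subunit genes 24 of 44, with medians of 0.42 and 0.43. By library totals the median was 0.54 and 57 members rose, with 13.9% of all genes called higher, so the direction at 24 h did not turn with the scaling. The count was 7 or 13 with sham replicate 1 or 2 left out, 13 without 24 h replicate 2, 8 in a fit of the compared groups alone (7.16% of all genes called) and 2 in complete tables alone, where 2.87% of all genes were called, a share like that of the members.

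The acidic stalk protein Rplp2, which with Rplp1 and the scaffold Rplp0 recruits elongation factors to the large subunit, had the largest rise at 24 h (gene 67186, chr7:141447651-141451359). Its pools had 46.8 and 47.6 CPM in sham, 79.1 and 48.0 at 0.5 h, 57.4 and 55.4 at 2 h, and 57.9 and 69.2 at 4 h. They had 78.1 and 88.5 CPM at 24 h, 73.4 and 88.1 at 48 h, 76.4 and 80.2 at 72 h, 68.2 and 63.0 at 120 h, and 47.3 and 71.7 at 168 h. From 2 h to 120 h both pools lay above sham, and at 0.5 h and 168 h the pools stood far apart. The rise was 0.82 ± 0.22 at 24 h (adjusted p = 0.0199, edgeR), 0.77 ± 0.22 at 48 h (adjusted p = 0.0143) and 0.73 ± 0.22 at 72 h (adjusted p = 0.0418). Its partners moved less: Rplp1 stood at 254 and 251 CPM in sham and 257 and 303 CPM at 24 h (0.15 ± 0.14, adjusted p = 0.503, edgeR), and Rplp0 at 445 and 464 against 515 and 597 CPM (0.29 ± 0.11, adjusted p = 0.0878, edgeR). Rplp0 rose at 48 h, by 0.31 ± 0.11 (adjusted p = 0.0458, edgeR), and Rplp1 passed the test at no time. The difference between the 3 stalk genes was not tested.

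Rpl12, at the base of the same stalk (gene 269261, chr2:32961712-32964045), had 117 and 114 CPM in sham, 162 and 175 at 4 h, 184 and 205 at 24 h, 163 and 156 at 48 h and 167 and 187 CPM at 72 h. It rose at each of these times, by 0.55 ± 0.14, 0.75 ± 0.14, 0.47 ± 0.14 and 0.62 ± 0.14 in that order, and its call at 24 h held under all 28 alternatives, with changes of 0.67 to 0.87. Its exons overlap those of Lrsam1 on the opposite strand, and reads could not be assigned by strand. Rpl35 rose at 24 h by 0.72 ± 0.15 from 135 and 153 to 238 and 235 CPM, and its exons overlap those of Arpc5l and Wdr38 on the opposite strand.

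Rpsa, the small subunit protein that also serves as a laminin receptor, rose at 24 h by 0.45 ± 0.12 from 452 and 461 to 577 and 669 CPM, and at 48 h by 0.41 ± 0.12. Rps6, the small subunit protein phosphorylated by S6 kinase, rose at 4 h by 0.42 ± 0.13 and at 24 h by 0.52 ± 0.13, from 459 and 495 CPM in sham to 634 and 642, then 679 and 687 CPM. At 48 h Rps6 had 559 and 548 CPM (0.22 ± 0.13, adjusted p = 0.214, edgeR). Rpl3, which helps form the peptidyl transferase centre, rose at 4, 24, 48 and 72 h, by 0.48 ± 0.11, 0.68 ± 0.11, 0.57 ± 0.11 and 0.52 ± 0.11. Its pools had 281 and 265 CPM in sham, 444 and 431 at 24 h and 269 and 304 at 168 h.

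**Figure D2:**
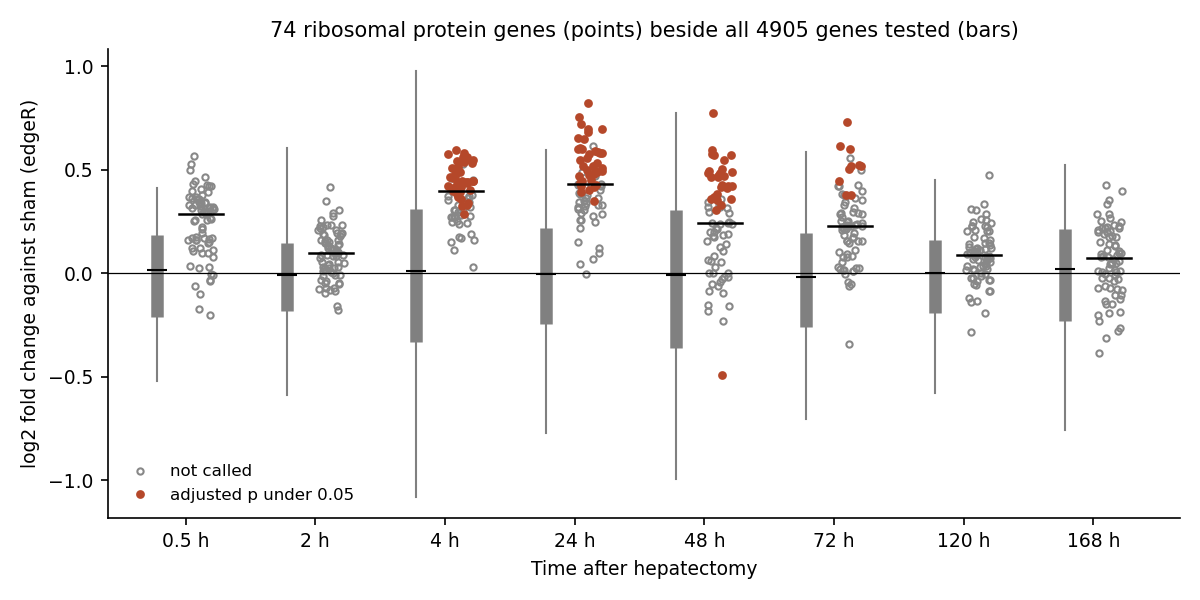
Log2 fold change against sham (y axis) of 74 ribosomal protein genes at each time after hepatectomy (x axis; filled points passed the adjusted p threshold of 0.05, open points did not; black line, their median), beside the 5th to 95th percentile (thin bar) and middle 50% (thick bar) of all 4905 genes tested. The members sit above the middle of all genes at 4 h and 24 h, and at 48 h they run from Rplp2 at 0.77 to Rpl7 at -0.49.

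At 48 h 60 of the 74 estimates were positive. Of the 74, 28 rose and 1 fell, with 36.8% of all genes called and 18.9% called lower, and the median change was 0.24. Both pools lay above both sham pools for 51 members (37.4% of all genes) and below them for 7 (39.6%). Among large subunit genes 22 of 44 rose and 1 fell, with a median of 0.34, and among small subunit genes 6 of 30 rose and none fell, with a median of 0.20; the difference between the subunits was not tested. The count of called members was 4 or 16 with sham replicate 1 or 2 left out, 12 without 48 h replicate 1, 7 without 48 h replicate 2, 7 in complete tables alone (14.9% of all genes called) and 45 by library totals (41.5%). The share of members called was near that of all genes, and 28 of the 29 called were higher.

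The largest rises at 48 h were those of Rplp2, given above, Rpl41, Rpl15 and Rpl38. Rpl41 had 398 and 456 CPM in sham and 665 and 624 CPM at 48 h (0.59 ± 0.16, adjusted p = 0.0117, edgeR). Rpl15 had 148 and 160 CPM in sham and 227 and 233 CPM at 48 h (0.58 ± 0.14, adjusted p = 0.0069, edgeR), and overlaps Nkiras1 on the opposite strand. Both genes had their sham pools well below the pools at 48 h. Rpl38, a large subunit protein whose loss in mice alters the axial skeleton, had 80.9 and 101 CPM in sham and 128 and 142 CPM at 48 h (0.57 ± 0.21, adjusted p = 0.0487, edgeR), and this call held under 11 of 28 alternatives.

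Rpl7, a large subunit protein, was the member called lower at 48 h (gene 19989, chr1:16101295-16104433). Its pools had 259 and 251 CPM in sham, 236 and 240 at 0.5 h, 280 and 216 at 2 h and 339 and 352 CPM at 4 h. They had 290 and 256 CPM at 24 h, 178 and 185 at 48 h, 204 and 198 at 72 h, 215 and 204 at 120 h and 202 and 189 CPM at 168 h. With TMM scaling Rpl7 was thus highest at 4 h, and from 48 h on all 8 pools lay below both sham pools. As deposited, scaled by library total, Rpl7 had 284 and 267 RPKM in sham, 277 and 298 at 4 h and 339 and 300 RPKM at 24 h. The peak at 4 h thus rests on the scaling. With TMM, Rpl7 rose by 0.44 ± 0.12 at 4 h (adjusted p = 0.0118, edgeR) and fell by 0.49 on the log2 scale at 48 h (SE 0.12, adjusted p = 0.0069, edgeR). The fall at 48 h kept its call under all 28 alternatives, from -0.54 to -0.32. At 72 h the change was -0.34 ± 0.12 (adjusted p = 0.0744, edgeR) and at 168 h -0.39 ± 0.12 (adjusted p = 0.0664, edgeR).

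Its paralogue Rpl7l1, which takes part in assembly of the large subunit, did not follow it. Rpl7l1 had 63.8 and 66.2 CPM in sham, 87.1 and 88.8 at 24 h and 76.2 and 77.5 CPM at 48 h, and it rose at 24 h by 0.44 ± 0.10 (adjusted p = 0.0117, edgeR). Per length it stood at 27.8 RPKM, against 251 RPKM for Rpl7. Whether the changes of both genes differ was not tested.

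**Figure D3:**
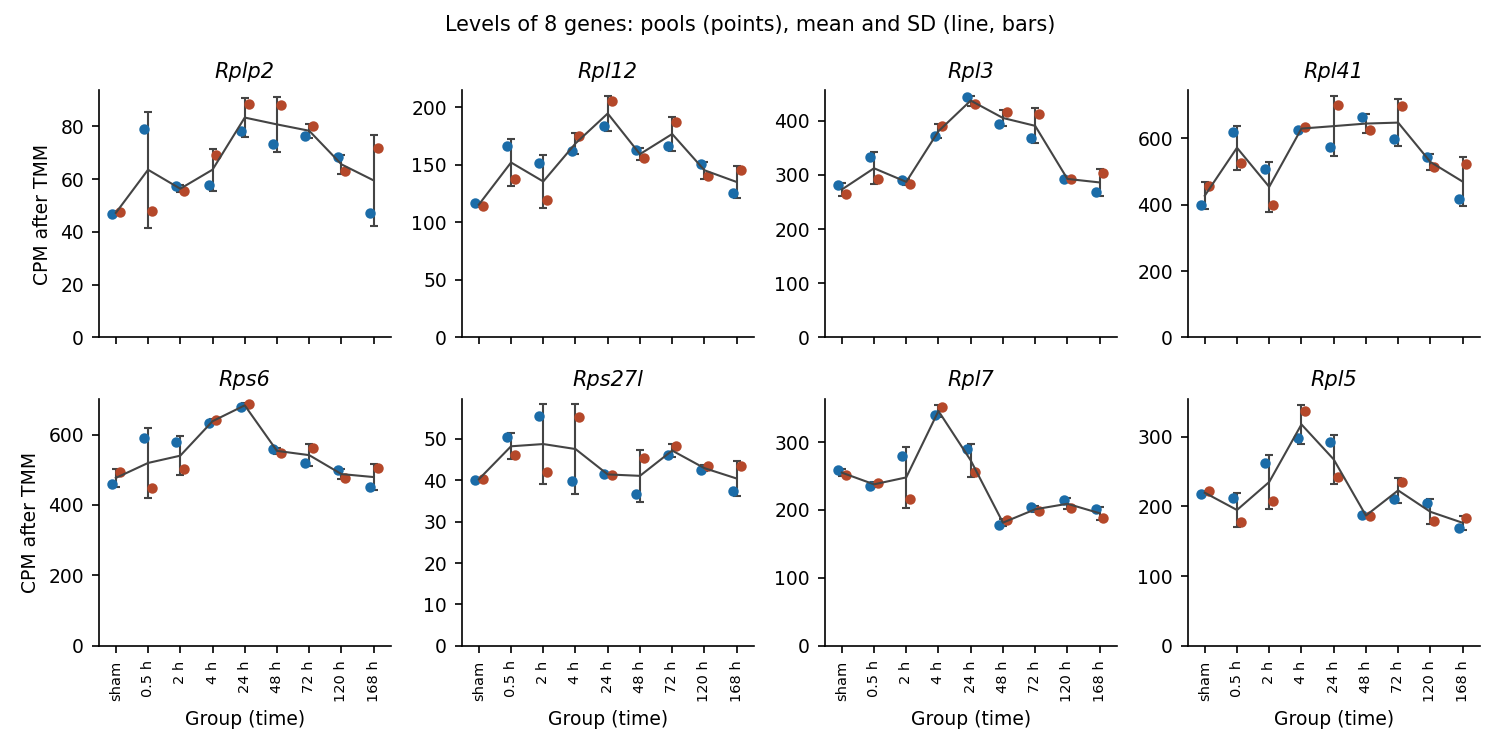
CPM after TMM scaling (y axis, from 0) of 8 members in each group (x axis): blue and red points are replicates 1 and 2, the line joins the group means, and bars are the SD of the 2 pools. On this scale Rplp2, Rpl12, Rpl3 and Rpl41 stay above sham from 4 h to 72 h, while Rpl7 and Rpl5 peak at 4 h and lie below sham at 48 h. The peaks at 4 h rest on TMM scaling.

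At 72 h, 10 of the 74 members rose and none fell, with 12.5% of all genes called and 6.12% called higher. The median change was 0.23, and 53 members lay above sham in both pools, against 29.4% of all genes. The largest rises were those of Rplp2 and Rpl12, given above, Rpl41 (0.60 ± 0.16, 598 and 697 CPM) and Rpl35 (0.52 ± 0.15, 188 and 224 CPM). The pools were unequal here, with 70 of 74 members higher in replicate 2. The count was 1 or 0 with sham replicate 1 or 2 left out, 0 without 72 h replicate 2 and 0 in complete tables alone (3.83% of all genes called), and DESeq2 called 24, of which 23 were higher (19.7% of all genes called).

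At 120 and 168 h no member passed the test by edgeR. At 120 h edgeR and DESeq2 called 0 of 74 members, with 0.775% and 4.04% of all genes called, 4 members had an unadjusted p under 0.05, and the median change was 0.09. Of the 74 estimates at 120 h 58 were positive, with 34 members above both sham pools (25.8% of all genes) and 6 below them (28.4%). At 168 h edgeR called 0 of 74, with 5.75% of all genes called, 4 members had an unadjusted p under 0.05, DESeq2 called 3 (2 higher and 1 lower, with 17.4% of all genes called), and the median change was 0.07. At 168 h 17 members lay above both sham pools (33.4% of all genes) and 16 below them (32.6%), and 68 of 74 were higher in replicate 2. A p that misses the threshold does not show that the levels were those of sham.

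Taking all 9 groups at once, 45 of the 74 members differed among groups, against 68.6% of all genes tested. The course was shallow: the highest group mean was 1.44 times the lowest in the median member, with a range of 1.21 for Rps27l to 1.97 for Rps23, a protein of the decoding centre, and the median over all genes was 1.70. With TMM scaling, the highest mean fell at 24 h for 37 members and at 4 h for 24, while 9.32% and 25.4% of all genes peaked at those times. The lowest mean fell in sham for 39 members and at 168 h for 19, against 10.4% and 11.6% of all genes. By library totals the change from 4 to 24 h was positive for all 74 members. The peaks at 4 h, and the rises called at that time, thus rest on TMM scaling. Against sham, 7 members rose at 4 times (Rpl3, Rpl12, Rpl13, Rpl35, Rpl41, Rps15a and Rps16), while 2.2% of all genes rose at 4 or more, and 16 passed the test at no time, as did 35.9% of all genes, among them Rplp1, Rps2, Rpl10, Rps14, Rps21 and Rps27l.

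**Figure D4:**
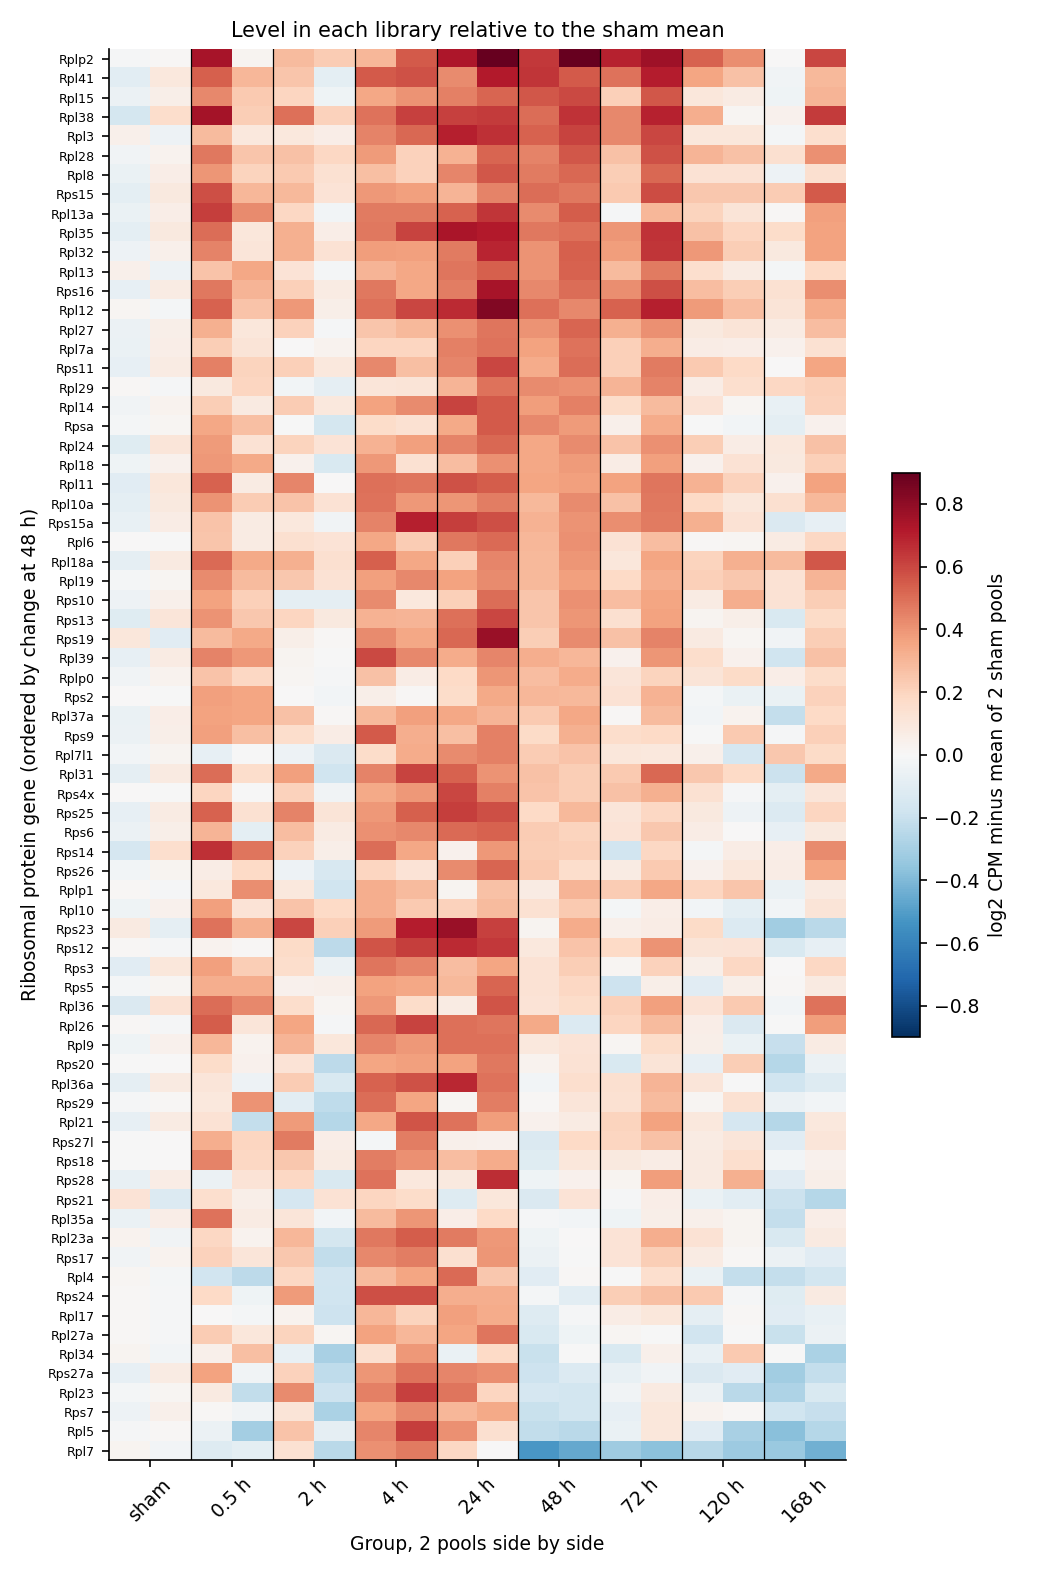
Log2 CPM minus the mean of the 2 sham pools (colour, from -0.9 to 0.9) for 73 of the 74 members (rows, ordered by the change at 48 h) in 18 libraries (columns, 2 pools to a group). With TMM scaling, as drawn, columns at 4 h and 24 h are red in nearly all rows (by library totals the median at 4 h is 0.02), and columns at 48 h run from red at the top (Rplp2) to blue at the bottom (Rpl7).

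Between 4 and 24 h few members changed when set to the median gene. Of 74, 3 rose and 1 fell, with 34.5% of all genes called, and the median change was 0.07. Rps26 rose by 0.32 ± 0.11 from 143 and 136 to 168 and 180 CPM, and Rpl29 by 0.29 ± 0.10 from 180 and 181 to 207 and 235 CPM. Rpl7a rose by 0.28 ± 0.10 from 339 in both pools to 406 and 416 CPM, and Rpl7 fell by 0.34 on the log2 scale (SE 0.12). By library totals the median was 0.56, 58 members rose (55.5% of all genes called higher), none fell and Rpl7 was at 0.15, so direction and count here rest on the scaling. Of the 18 libraries, leaving out sham replicate 1 or 2, 48 h replicate 2 or 120 h replicate 1 left 1 call, leaving out 120 h replicate 2 or 168 h replicate 1 or 2 left 2, and leaving out 4 h replicate 1 or 2, 24 h replicate 2 or 48 h replicate 1 left 0.

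From 24 to 48 h, 10 members fell and none rose, with 14.5% of all genes called and 6.59% called lower. The median change was -0.16, and both pools at 48 h lay below both at 24 h for 41 members, against 27.8% of all genes. Of the 10, 3 belong to the small subunit (Rps7, Rps12 and Rps27a) and 7 to the large (Rpl4, Rpl5, Rpl7, Rpl17, Rpl23a, Rpl27a and Rpl36a). Rpl7 fell by 0.59 on the log2 scale (SE 0.12, adjusted p = 0.00881, edgeR). Rps27a, which is made as a fusion with ubiquitin, fell by 0.59 (SE 0.15) from 119 and 117 to 77.2 and 80.5 CPM, and it overlaps Clhc1 on the opposite strand. Rpl36a fell by 0.52 (SE 0.13) from 143 and 125 to 87.8 and 98.9 CPM. The count was 1 without 24 h replicate 1, 0 without 48 h replicate 1, 1 without 48 h replicate 2, 5 in complete tables alone (6.56% of all genes called) and 0 in a fit of the compared groups alone (0.571%).

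Rpl5 and Rpl11, which with 5S RNA can bind Mdm2 and so stabilise p53, both rose at 4 h, by 0.53 ± 0.14 and 0.49 ± 0.17. Neither of these calls held by library totals. Rpl5 had 218 and 222 CPM in sham, 298 and 337 at 4 h, 292 and 243 at 24 h and 188 and 186 CPM at 48 h, and it fell from 24 to 48 h by 0.52 on the log2 scale (SE 0.14). It overlaps Fam69a on the opposite strand. Rpl11 had 224 and 258 CPM in sham, 339 and 337 at 4 h, 357 and 351 at 24 h and 308 and 310 CPM at 48 h. From 24 to 48 h its change was -0.20 ± 0.17 (adjusted p = 0.434, edgeR), and the difference between both partners was not tested.

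From 48 to 168 h, 8 members fell and none rose, with 20.7% of all genes called and 9.3% called lower. The median change was -0.19, and 45 members were lower in both pools, against 35.2% of all genes. Rpl3 fell by 0.50 on the log2 scale (SE 0.11) from 395 and 416 to 269 and 304 CPM, Rps15a by 0.46 (SE 0.12) from 38.7 and 41.3 to 28.5 and 29.6 CPM, and Rpl8 by 0.44 (SE 0.12) from 262 and 271 to 183 and 209 CPM. Rpl15 fell by 0.43 (SE 0.14), and Rpl7a, Rpl13, Rpl14 and Rpsa also fell. By library totals the median was -0.34 and 21 fell, with 19.3% of all genes called lower. The count was 1 without 48 h replicate 1, 0 without 48 h replicate 2, 0 without 168 h replicate 1, 5 without 168 h replicate 2 and 1 in complete tables alone (13.8% of all genes called).

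The members that stood low at 48 h tended to have transcripts with less GC, with exceptions. Across the 74 members the change at 48 h against sham rose with the GC content of the longest protein-coding transcript (Spearman rho 0.45), and across the 4880 genes with a GC value the same held (0.39). At 24 h both were 0.08, at 4 h -0.17 and -0.20, and at 168 h 0.57 and 0.56; from 24 to 48 h both were 0.48. The points of each correlation share the same libraries, and no p is given. Rpl7 has 45.8% GC and Rpl5 42.7%, while Rplp2 has 55.0% and Rpl35 56.7%. Not all members followed this trend. Rpl15 has 43.2% GC and rose at 48 h by 0.58, and Rpl34 has 55.5% GC and means of 23.9 CPM in sham and 22.4 CPM at 48 h. With the GC trend taken out, 17 members rose and 1 fell at 48 h (36.0% of all genes called) at a median of 0.22 against 0.24, while 55 were called at 4 h (40.5%) and 47 at 24 h (23.1%).

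**Figure D5:**
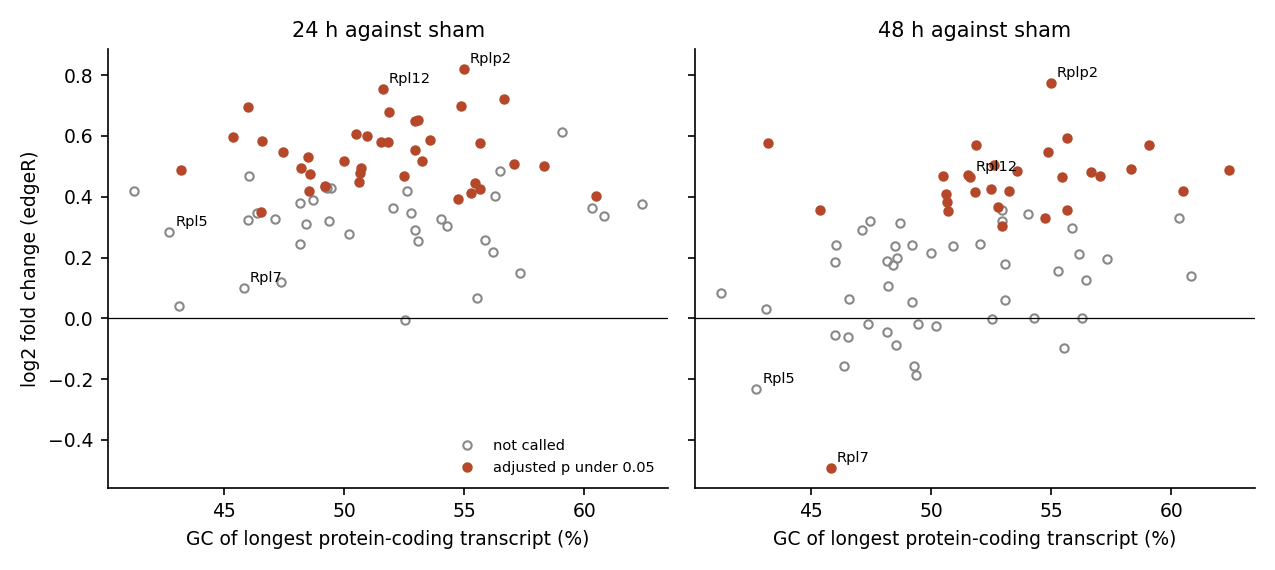
Log2 fold change against sham (y axis) of 74 members against the GC percent of the longest protein-coding transcript (x axis), at 24 h (left) and 48 h (right); filled points passed the adjusted p threshold. The points show no slope at 24 h (rho 0.08) and rise with GC at 48 h (rho 0.45), with Rpl7 and Rpl5 at the lower left.

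Members that have paralogues are given here per length, and reads of near-identical copies could have been left out of either. Rps27l, a stress-inducible relative of Rps27, had 95.1 RPKM, 40.1 and 40.4 CPM in sham and 36.7 to 55.6 CPM in the other libraries, and passed the test at no time. Rps27 itself had 1 to 9 reads in complete tables (1.0 RPKM). Rpl36a had 205 RPKM, Rpl39 84.3 RPKM and Rps4x, the X-linked form of Rps4, 337 RPKM. Rpl39 rose at 1 of the 8 times, and Rps4x at 2. Rpl3l, Rpl10l and Rpl39l, copies known from muscle or testis, had 0 to 2, 0 to 2 and 0 to 3 reads a library, at or under the 3 reads that a count of 0 allows.

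Of the 7 members outside the test, Rpl30 and Rpl37 were missing only from the shorter table of 0.5 h replicate 1. Rpl30 had 87 to 173 reads and Rpl37 78 to 169 in complete tables, and Rpl22l1, a paralogue of Rpl22, had 8 to 39. In a fit of the 16 complete tables over 12180 genes, with 1 sham library, none of these 3 passed the test against sham. After scaling, the change of Rpl30 against sham was 0.57 ± 0.24 at 4 h and 0.15 ± 0.24 at 24 h. From 4 to 24 h it was -0.42 ± 0.19. The highest count of Rpl30, 173 in 24 h replicate 1, is not scaled, so it does not mark a peak at 24 h. The other 4 were Rps27, Rpl3l, Rpl10l and Rpl39l. Of the genes outside the naming rule, Rps3a1 rose at 4 h by 0.55 ± 0.17 and had -0.15 ± 0.17 at 48 h, and Rpl36al passed at no time, with 0.26 ± 0.12 at 4 h.

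Of 18 genes of other translation factors and related proteins that are known for a similar tract, the numbers that rose were 5 (4 h), 4 (24 h), 5 (48 h) and 1 (72 h), while none fell at 4, 24 or 72 h and 2 fell at 48 h, with medians of 0.33, 0.15, 0.01 and 0.04 in that order, against -0.02 to 0.01 for all genes. Of all genes 35.6%, 17.2%, 36.8% and 12.5% were called at these times. In complete tables the numbers that rose were 1, 0, 2 and 1 of 20, and 1 fell, at 48 h, with 15.5%, 2.87%, 14.9% and 3.83% of all genes called. The elongation factor subunits Eef1g (0.56 ± 0.11) and Eef1d (0.65 ± 0.13) rose at 48 h, while the initiation factor subunit Eif3e (-0.77 ± 0.22) and Tpt1, the translationally controlled tumour protein (-0.44 ± 0.13), fell, and of these 4 Eef1d and Eif3e were also called in complete tables. Tpt1 had 619 and 608 CPM in sham, 818 and 925 at 4 h and 451 and 455 CPM at 48 h, and it rose at 4 h by 0.51 ± 0.13. Gnb2l1, which encodes a protein bound to the 40S subunit, rose at 48 h (0.38 ± 0.11), a call lost in complete tables.

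Of 11 genes of mTOR signalling and of the control of oligopyrimidine mRNAs, 2 rose and 2 fell at 4 h and 2 rose and 1 fell at 48 h, with 1 fall each at 24 h and 72 h, and medians of 0.03 at 4 h, -0.03 at 24 h and 0.22 at 48 h. Over all 18 libraries these shares are near or below those of all genes given above. Complete tables, with 1 sham library, let 22 genes be tested. Their medians were -0.03 at 4 h, -0.13 at 24 h and 0.19 at 48 h. There, at 4 h, a larger share of the 22 than of all genes was called, mostly lower. At 48 h the share was near that of all genes, and at 24 and 72 h none of the 22 was called. Ddit4, a stress-induced inhibitor of mTORC1, rose there at 4 h (3.26 ± 0.50, chosen after its value was seen). Deptor, an inhibitor bound to mTOR, had 76.9 and 65.7 CPM in sham and 31.2 and 25 CPM at 48 h, and fell at 4, 24, 48 and 72 h, by 1.34 on the log2 scale at 48 h (SE 0.22, adjusted p = 0.000677, edgeR). Eif4e, which binds the mRNA cap, rose at 4 h (0.43 ± 0.13) and 48 h (0.44 ± 0.13), and Mtor at 48 h (0.40 ± 0.15). At 4 h Larp4, a La-related protein that binds poly(A), rose (0.96 ± 0.23) and Rptor, the mTORC1 scaffold, fell (-0.60 ± 0.12). Of these calls, those of Deptor at 4 and 48 h and of Rptor held in complete tables. Of 8 genes for ribosomal protein chaperones, importers and RNA polymerase I, 2 rose at 4 h, 1 at 24 h and 2 at 48 h, none fell against sham, and the medians were 0.22, 0.27 and 0.26. Each count is below the share of all genes called in either direction at that time. At 4 and 24 h it is above the share of all genes called higher, 16.9% and 7.83%. That share is not given here for 48 h, so the count at 48 h is not set beside it. In complete tables, with 1 sham library, the medians of 17 such genes were 0.37, 0.32 and 0.30. Called over all 18 libraries were, among others, Rrn3, the initiation factor of polymerase I, at 4 h (0.85 ± 0.17), the importin Ipo5 at 24 h (0.41 ± 0.11) and Ubtf, the rDNA transcription factor, at 48 h (0.52 ± 0.14), of which Rrn3 was also called in complete tables.

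Summed levels of markers of other liver cells differed between groups, and their part in the results was not tested. In complete tables sham had 1 library, and for most lists and times no single marker passed edgeR's test against sham. Stellate cell markers passed most often, at 48 h in both directions and at 72 h higher. Their median change was 0.83 at 48 h and 1.60 at 72 h. At 168 h the median was 1.15 for Kupffer cell and macrophage markers and 0.31 for the 4 B and T cell markers tested. At 4 h it was 1.51 for neutrophil and monocyte and 1.40 for cholangiocyte markers. In complete tables the 6 Kupffer cell and macrophage markers measured summed to 437 CPM in sham, 505 to 1046 CPM at 24 h and 972 to 1151 CPM at 168 h. The 8 B and T cell markers summed to 72.3 CPM in sham, 31.5 to 53.6 CPM at 24 h and 341 to 531 CPM at 168 h, with 1 of the 8 at 0 in sham and at 24 h. The 6 neutrophil and monocyte markers summed to 76.2 CPM in sham, 115 to 192 CPM at 4 h and 41.7 to 179 CPM at 24 h. The 5 cholangiocyte markers summed to 39.1 CPM in sham and 97.4 to 158 CPM at 4 h. The 6 stellate cell markers summed to 204 CPM in sham, 181 to 200 CPM at 48 h and 263 to 501 CPM at 72 h. Their lowest sum over all groups was 163 CPM. The 6 endothelial markers ranged from 249 to 331 CPM over all groups, and the 4 erythroid markers measured from 78.6 to 229 CPM.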

How the data were processed

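The authors deposited 1 table per library. Its counts are reads mapped uniquely to each gene, per the file headers, and the authors' RPKM values are those counts divided by gene length and library total. Reads were mapped to mm10 (per the submitters' processing notes). Aligner, counter and strand: not given in the sources used here. Without the strand, reads of overlapping exons cannot be assigned, which touches 21 of the 81 members. Genes with neither a symbol nor a match (152) were left out and held at most 0.0326% of the reads.

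Counts were tested with edgeR 4.0.16 (R 4.3.3): quasi-likelihood test, TMM factors (0.765 to 1.16), 1 fit of all 9 groups with 9 residual degrees of freedom and a biological coefficient of variation of 0.139, and Benjamini-Hochberg adjustment per comparison at 0.05. Genes were kept with at least 15 reads in all and, in at least 2 libraries, the CPM equal to 10 reads of a median-sized library. The 16 complete tables were fitted over 12180 genes with 7 residual degrees of freedom, where sham and 0.5 h have 1 library each, taken to vary like the other groups. The SE was derived from the log2 change and its F statistic. Alternatives were DESeq2 1.42.0, limma-trend (limma 3.58.1) on log2(RPKM + 1), RLE factors, library totals, no filter, unlisted genes as 0, complete tables, a replicate block, the compared groups alone, leaving out each library, and a GC trend removed per library (span 0.3). The scripts were tested on simulated data.

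Members and lists were chosen with earlier results of these data known. Genes were named by rule: the 4 largest rises and 4 largest falls called per comparison with pools that do not overlap, members against the larger number of calls, paralogues and their partners, the 4 highest and 4 lowest by RPKM, Rpsa, Rplp0, Rplp1, Rplp2, Rps6, Rpl5 and Rpl11, and at most 4 called genes of a list. Rpl12, Rpl3, Rps6 and the tract windows were described further after their values were seen. Rpl22 and Rps4l were not analysed here, and some genes that the rules name are not reported here. Wilson intervals and the floor of 3 reads cover counting error only, as PCR copies are counted as reads. Python 3.11.15, pandas 2.3.3 and matplotlib 3.10.9 served for tables and plots.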

Additional observations from a re-analysis of the deposited data

Results flagged for a closer look

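In 22 cases the change of a member differed between 2 times, by edgeR's quasi-likelihood test of the difference itself. These were 4, 10 and 8 of 74 members from 4 to 24, 24 to 48 and 48 to 168 h. Of all genes 34.5%, 14.5% and 20.7% were called, so members were called no more often than genes at large. From 4 to 24 h these were Rps26 (log2 0.32), Rpl29 (0.29), Rpl7a (0.28) and Rpl7 (-0.34), with adjusted p of 0.0341 to 0.0429, and the pools of both times did not overlap. From 24 to 48 h they were Rpl7 (-0.59), Rps27a (-0.59), Rpl36a (-0.52), Rpl5 (-0.52), Rps7 (-0.51), Rpl27a (-0.50), Rps12 (-0.48), Rpl23a (-0.45), Rpl4 (-0.43) and Rpl17 (-0.41), with adjusted p of 0.00881 to 0.0486. From 48 to 168 h they were Rpl3 (-0.50), Rps15a (-0.46), Rpl8 (-0.44), Rpl15 (-0.43), Rpsa (-0.43), Rpl13 (-0.38), Rpl7a (-0.34) and Rpl14 (-0.34), with adjusted p of 0.00594 to 0.0475. Groups held 2 pools, so single pools were not tested as outliers.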

How the results depend on the processing

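Members called moved with the setting as follows. The share of all genes called moved too, at 4 h from 35.6% with TMM to 53.1% by library totals, and at 72 h from 12.5% by edgeR to 19.7% by DESeq2. Shares under the same setting are given above for some of these counts only. Where none is given, as with unlisted genes as 0, a library left out or the replicate block, a shift cannot be told from one of all genes. With unlisted genes as 0, 28 differed among groups, and calls were 22, 23, 11 and 2 at 4, 24, 48 and 72 h, 0 for 24 against 4 h and 2 for 168 against 48 h. With complete tables only, the number that differed was 16, with 5, 2, 7 and 0 at 4, 24, 48 and 72 h and 0, 5 and 1 from 4 to 24, 24 to 48 and 48 to 168 h. By library totals calls were 1 at 4 h, 45 at 48 h, 22 at 72 h, 58 for 24 against 4 h and 21 for 168 against 48 h. By limma-trend on RPKM they were 2 at 4 h, 58 at 24 h, 45 at 48 h, 22 at 72 h, 58 for 24 against 4 h and 22 for 168 against 48 h. DESeq2 called 8 at 0.5 h, 24 at 72 h and 3 at 168 h. With only the compared groups, 8 were called at 24 h, 1 at 168 h and 0 for 24 against 4 h and 48 against 24 h. With GC removed, 18 were called at 48 h and 1 from 4 to 24 h. Rpl7 from 4 to 24 h turned to 0.15 by totals and to 0.15 by limma-trend. Of 29 changes chosen by the naming rule, 29 kept their call by DESeq2, RLE factors and no filter, 28 with the replicate block, 14 with unlisted genes as 0 and 12 in complete tables. The cause of each of these shifts was not tested. Complete tables hold fewer libraries and let more genes into the test, and fits of the compared groups hold fewer libraries.

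Leaving out 1 library gave 34 to 47 members that differed among groups, 4 to 44 at 4 h, 7 to 43 at 24 h, 4 to 28 at 48 h, 0 to 13 at 72 h, 0 to 1 at 168 h (1 without 2 h replicate 1 or 2 or 24 h replicate 1 or 2), 0 to 4 for 24 against 4 h, 0 to 14 for 48 against 24 h and 0 to 9 for 168 against 48 h. At 0.5, 2 and 120 h it gave 0 each time. With a lone pool in a group, that pool was taken to vary like the others.

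Replicate numbers did not pair the pools: over 36 pairs of groups, same-numbered deviations correlated at -0.55 to 0.53 (median 0.0431), with 14 pairs over 0.1. With the replicate block, 42 members differed among groups, and 38, 38, 27 and 10 were called at 4, 24, 48 and 72 h and 4, 8 and 7 from 4 to 24, 24 to 48 and 48 to 168 h.

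With Alb out of the total, mean shares were 1.48% in sham and 1.75%, 1.47%, 2.09%, 2.00%, 1.97%, 1.63% and 1.60% at 0.5, 4, 24, 48, 72, 120 and 168 h. With 2 pools a group, a pool of 3 mice can decide a count, as above, and members outside both short tables could not be tested in all libraries.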

Other observations

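The p53 arm, to which Rpl5 and Rpl11 bind through Mdm2, was measured by 3 genes in 18 libraries. Cdkn1a, the p21 cell cycle inhibitor, had 44.6 and 92.2 CPM in sham, 333 and 372 at 2 h, 488 and 392 at 4 h, 101 and 83.7 at 24 h and 207 and 242 CPM at 48 h. Its sham pools stood apart from each other, and those at 2, 4 and 48 h lay above both. It rose at 2 h (log2 2.36 ± 0.34), 4 h (2.68 ± 0.34) and 48 h (1.71 ± 0.33). Trp53, the p53 gene itself, rose at 4, 24, 48, 72 and 168 h, by 0.83 ± 0.21, 0.74 ± 0.20, 1.24 ± 0.20, 0.95 ± 0.20 and 0.94 ± 0.20 in that order. Mdm2, the ligase that degrades p53, rose at 4 h (0.56 ± 0.19), and none of the 3 fell against sham. The median of the 3 genes was 0.83 at 4 h and 1.24 at 48 h, against 0.01 and -0.01 for all genes tested, of which 35.6% and 36.8% were called. In complete tables, where Mdm4 could be tested too, the median of the 4 genes was 0.51 at 4 h and 0.48 at 48 h, Cdkn1a was called at 2, 4 and 48 h and Trp53 at 48 h alone (1.01 ± 0.25), and the other calls of Trp53 and that of Mdm2 were lost.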
